A study of Mus musculus with 4 samples.

Results

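Penk and Tmem158, 2 of the 32285 genes counted, were examined in CD4+ T cells sorted from the steatotic liver of mice. They were picked from these same libraries as the genes most specific to the Treg-like cells, so their levels there are a description and support nothing by themselves. One droplet library of 5′ gene expression with matched T cell receptor sequencing was made per genotype, each from the pooled cells of 2 male mice. All mice were fed CD, a choline-deficient high-fat diet with 60 kcal% fat and 0.1% methionine that induces metabolic dysfunction-associated steatohepatitis. The library labelled WT came from WT mice. The library labelled dKO came from mice lacking Nr4a1 and Nr4a2, orphan nuclear receptors induced by T cell receptor signals, through floxed alleles and Cre driven by the Cd4 promoter, which deletes in the whole T cell lineage and not in Tregs alone. After filtering, the library labelled WT kept 10556 cells with 23437516 UMIs (unique molecular identifiers, 1 per captured RNA molecule), and that labelled dKO kept 17462 cells with 37794986 UMIs. With 1 library per genotype and no means to tell the pooled mice apart, no test between genotypes was possible. All 95% intervals cover counting error only, and 242 cell barcodes were shared by the libraries.

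Tregs are Foxp3+ CD4+ T cells that restrain other immune cells, and those resident in tissues also make factors of repair. Penk encodes proenkephalin, a secreted precursor from which prohormone convertases and carboxypeptidases release Met- and Leu-enkephalin, short peptides that act on opioid receptors. Tmem158 encodes a transmembrane protein known as a gene induced by Ras signalling.

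The enkephalin repeats of Penk are shown because they are what makes its transcript an opioid precursor. Penk lies at chr4:4133531-4138819 on the minus strand of GRCm38 (mm10), and its longer coding transcript in GENCODE M21 has 2 exons and 268 codons. The sequences run 5′ to 3′ along the coding strand, with the 5 enkephalin codons in capitals and the flanking codons in lower case.
Repeat 1: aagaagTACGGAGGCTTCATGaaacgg
Repeat 2: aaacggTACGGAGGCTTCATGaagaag
Repeat 3: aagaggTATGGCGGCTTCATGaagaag
Repeat 4: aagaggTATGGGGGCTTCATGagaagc
Repeat 5: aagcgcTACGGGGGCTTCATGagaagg
Repeat 6: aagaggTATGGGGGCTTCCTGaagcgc
Repeat 7: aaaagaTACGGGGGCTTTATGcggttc
All 7 lie in exon 2. The capitals of repeat 1 are at chr4:4134334-4134348, those of repeat 6 at chr4:4133941-4133955 and those of repeat 7 at chr4:4133848-4133862. Repeat 6 encodes Leu-enkephalin and the other 6 encode Met-enkephalin. Paired basic codons, the signal that prohormone convertases read, come before every repeat and after all but repeats 4 and 7. The gene A830012C17Rik overlaps Penk in the annotation and held 4 UMIs in the library labelled WT and 2 in that labelled dKO. Tmem158 lies at chr9:123259053-123260764 on the minus strand, in 1 exon with 286 codons. Its coding sequence was 73.8% G and C, against 54.2% for Penk.

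The cells formed 8 clusters. Of the cells labelled WT, 538 (5.10%) fell in cluster 1, and of those labelled dKO, 6123 (35.1%). It was chosen as the cluster with the most Foxp3 UMIs. It is called Treg-like because Klrg1, Tnfrsf9 and Il10 stood among its 10 leading genes. Its Foxp3 level, and Foxp3 as a member of the marker list, therefore describe the choice and do not support the name. Foxp3, the defining factor of Tregs, stood at 428 CPM (its summed UMIs over all UMIs of the cells, scaled by 1e+06) in cluster 1 of the library labelled WT and at 471 CPM in that labelled dKO, against 26.6 and 73.5 CPM in all other cells. All 15 genes of the Treg marker list were past 2-fold higher in cluster 1 in the library labelled WT and 14 of 15 in that labelled dKO, where Nrp1 was lower, beside 5.24% and 8.09% of the genes with enough UMIs. Although CD4+ T cells had been sorted, clusters 2 and 5 carried markers of plasmacytoid dendritic cells and of myeloid cells. The counts of both deleted genes were higher in the library labelled dKO. Nr4a1 stood at 725 CPM in the library labelled WT and 1659 CPM in that labelled dKO, and Nr4a2 at 183 and 306 CPM. Counts per gene do not separate deleted from retained exons, so they check nothing about the deletion, and every direction between the libraries rests on the labels.

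Penk was concentrated in the Treg-like cells of both libraries. Cluster 1 of the library labelled WT held 204 of the 353 Penk UMIs, at 206 CPM (Poisson interval 179 to 236), against 6.64 CPM in all other cells. That of the library labelled dKO held 1600 of 2036 UMIs, at 177 CPM (169 to 186), against 15.2 CPM. The log2 ratio of cluster 1 over all other cells was 4.96 in the library labelled WT and 3.55 in that labelled dKO, where 5.24% and 8.09% of the genes with enough UMIs were past 2-fold higher. On the scale of log2(CPM + 1), which holds back genes with few UMIs, the difference between cluster 1 and all other cells ranked Penk 2 of 4839 genes in the library labelled WT, behind Frmd5, and 1 of 9808 in that labelled dKO. By the plain ratio Gm4858 (3.97) and Mt2 (3.71) stood above it in the library labelled dKO.

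Tmem158 was skewed to the same cells with fewer UMIs. Cluster 1 of the library labelled WT held 18 of the 50 Tmem158 UMIs, at 18.2 CPM (10.8 to 28.7), against 1.43 CPM in all other cells. That of the library labelled dKO held 747 of 1008 UMIs, at 82.7 CPM (76.9 to 88.8), against 9.07 CPM. The log2 ratio was 3.67 in the library labelled WT and 3.19 in that labelled dKO, where the gene ranked 4 of 9808 on the log2(CPM + 1) scale. Over both libraries that scale ranked Penk 1 and Tmem158 2, and Klrg1, an inhibitory lectin receptor, came next. Their plain ratios were 3.98, 3.74 and 3.50, below the 4.27 of Gm4858 and the 4.12 of Mt2. The pooled values mix the libraries, since 6123 of the 6661 cells of cluster 1 were labelled dKO. The pooled Tmem158 ratio of 3.74 lay above that of either library. In the library labelled WT alone, Tmem158 was not ranked, with 18 UMIs where 30 were needed.

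**Figure D1:**
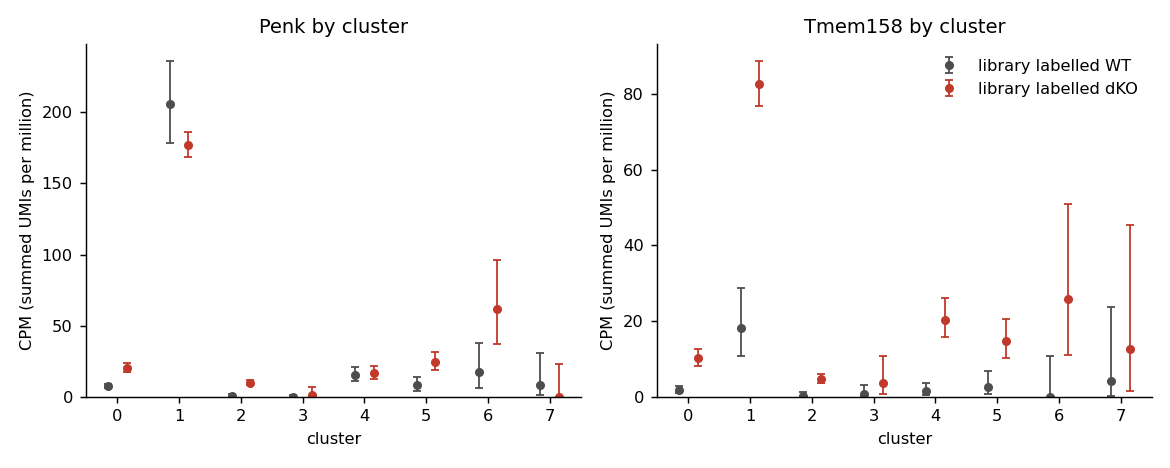
Levels of Penk (left) and Tmem158 (right) in each of the 8 clusters (horizontal axis), as CPM of the summed cells (vertical axis), for the library labelled WT (grey) and that labelled dKO (red), with exact 95% Poisson intervals. Cluster 1 is highest for Penk in both libraries, at 206 and 177 CPM, and for Tmem158 at 18.2 and 82.7 CPM.

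Both genes were low outside cluster 1. Cluster 6, an unnamed cluster with only 3.82% of UMIs from ribosomal protein genes, also carried genes of the Treg list. In the library labelled dKO it had Foxp3 at 268 CPM and Ikzf2 at 4952 CPM, against 471 and 1303 CPM in cluster 1. Itgb8, also of that list, was among its 10 leading genes. Penk in the library labelled dKO stood next highest there, at 61.5 CPM (37.0 to 96.0, 19 UMIs). It followed at 24.6 CPM in cluster 5, 20.5 CPM in cluster 0, a mixed cluster led by Klrk1, Fasl, Ifng and Il17f, and 16.5 CPM in cycling-like cluster 4, with intervals that overlapped. It was at 9.73 CPM in plasmacytoid dendritic-like cluster 2, and had 1 UMI in naive-like cluster 3 and none in cluster 7. Penk in the library labelled WT ran from 17.4 CPM (6 UMIs) in cluster 6 and 15.4 CPM in cluster 4 down to 0 of 2355190 UMIs in cluster 3, which allows up to 1.27 CPM by 3 counts and 1.57 CPM by the exact interval. Tmem158 in the library labelled dKO stood at 25.9 CPM (8 UMIs) in cluster 6, 20.4 CPM in cluster 4, 14.8 CPM in cluster 5, 12.5 CPM (2 UMIs) in cluster 7, 10.1 CPM in cluster 0, 4.68 CPM in cluster 2 and 3.70 CPM in cluster 3. No other cluster of the library labelled WT held more than 20 Tmem158 UMIs or passed 4.25 CPM. Neighbours in the order of Tmem158 overlapped in their intervals from cluster 6 to cluster 0 in the library labelled dKO.

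Shares of cells with a UMI were compared after a random draw of 1000 UMIs per cell (thinning). The plasmacytoid dendritic-like cells of cluster 2 served as a reference for free RNA and mixed droplets. That they lack both genes was assumed and not tested. A Penk UMI was found in 5.74% of thinned cells of cluster 1 in the library labelled WT (22 of 383, Clopper-Pearson interval 3.63 to 8.57%) and in 4.0% in that labelled dKO (172 of 4297, 3.44 to 4.63%). In cluster 2 the shares were 0 of 1220, which allows up to 0.246% by 3 counts and 0.302% by the exact interval, and 0.295%. A Tmem158 UMI was found in 1.57% (6 of 383, 0.577 to 3.38%) and 6.96% (299 of 4297, 6.22 to 7.76%) of thinned cells of cluster 1, against 0.0820% and 0.271% in cluster 2. The shares in cluster 1 thus lay above those of cluster 2 for both genes in both libraries. Cluster 5, with myeloid markers, had higher shares than cluster 2. Penk was found in 0.871% of its cells in the library labelled WT and 1.49% in that labelled dKO. Tmem158 was found in 0.218% (0.0055 to 1.21%) and 1.34%. These also lay below the shares of cluster 1, but the Tmem158 intervals overlapped in the library labelled WT. Before thinning, Penk was found in 7.62% and 4.16% of the cells of cluster 1 and Tmem158 in 2.97% and 9.13%. Thinning left out 155 and 1826 cells of cluster 1. The median depths before thinning were 1350 and 1215 UMIs in cluster 1, and 1654.5 and 3048 UMIs in cluster 2.

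The UMIs of both genes were spread over Treg-like cells in different ways. Most Penk UMIs came from a few cells. Of the 255 Penk+ cells of cluster 1 in the library labelled dKO, 69 held 1 UMI and 97 held 5 or more, with 80.2% of the UMIs, and the highest held 67. Of the 41 Penk+ cells in the library labelled WT, 14 held 1 UMI and 11 held 5 or more, with 70.6% of the UMIs, and the highest held 28. After thinning, the variance of Penk UMIs per cell was 10.4 times the mean in the library labelled WT and 10.1 times in that labelled dKO. Tmem158 was spread more evenly. Of the 559 Tmem158+ cells of cluster 1 in the library labelled dKO, 418 held 1 UMI, 3 held 5 or more, the highest held 7, and the variance after thinning was 1.34 times the mean. Of the 16 Tmem158+ cells in that labelled WT, 14 held 1 UMI. Because the UMIs of 1 cell are not independent, the intervals of Penk are too narrow. Without the 5 cells with the most Penk UMIs in each library, an alternative chosen after seeing the data, the level of Penk in cluster 1 was 107 CPM in the library labelled WT and 149 CPM in that labelled dKO.

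**Figure D2:**
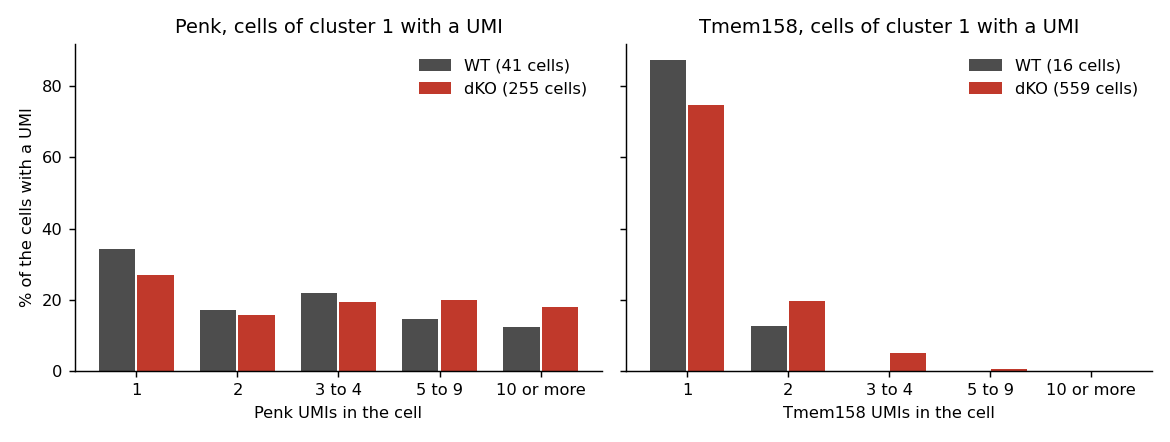
Percent of the Penk+ (left) and Tmem158+ (right) cells of cluster 1 (vertical axis) by the number of UMIs of the gene in the cell before thinning (horizontal axis), in the library labelled WT (grey) and that labelled dKO (red). Cells with 5 or more UMIs number 11 of 41 and 97 of 255 for Penk, and for Tmem158 3 of 559 in the library labelled dKO and none in that labelled WT.

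The Treg marks of the cells with 5 or more Penk UMIs were then read, before thinning. This limit was set after the values were seen and cuts a continuous range. In the library labelled dKO, 38 of the 97 such cells of cluster 1 had a Foxp3 UMI (39.2%, 29.4 to 49.6%), against 42.7% of the cells with no Penk UMI. Ikzf2, encoding the Treg factor Helios, was found in 81.4% against 72.8%, Ctla4, an inhibitory receptor, in 87.6% against 85.8%, and Tnfrsf9, the costimulatory receptor 4-1BB, in 91.8% against 68.0%, and Areg, a growth factor of tissue repair, in 52.6% against 31.8%. None of the 11 such cells in the library labelled WT had a Foxp3 UMI (upper bound 28.5%), against 12 of 30 cells with 1 to 4 Penk UMIs and 215 of 497 cells with none. Of those 11 cells, 7 had a Ctla4 UMI, 7 a Tigit UMI, 6 a Gata3 UMI, 5 an Ikzf2 UMI, 5 a Tnfrsf9 UMI and 2 an Areg UMI. Of the 497 cells with no Penk UMI there, 359 had a Ctla4 UMI (72.2%), 217 a Tigit UMI (43.7%), 134 a Gata3 UMI (27.0%), 331 an Ikzf2 UMI (66.6%), 274 a Tnfrsf9 UMI (55.1%) and 211 an Areg UMI (42.5%). Depth went with these groups, since the cells with 5 or more Penk UMIs had medians of 1775 UMIs in the library labelled dKO and 1977 in that labelled WT, against 1210 and 1338 in cells with none.

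Outside cluster 1, 9 cells labelled WT and 25 labelled dKO held 5 or more Penk UMIs. Of the 25 cells, 19 had an Ikzf2 UMI and 9 a Foxp3 UMI, against 28.1% and 10.5% of the cells there without Penk. Likely doublets made up 17 of the 25, against 1798 of the 11229 cells without Penk, and in cluster 2 they made up 6 of 7. Of the 9 cells in the library labelled WT, 7 had an Ikzf2 UMI and 3 a Foxp3 UMI, against 12.1% and 3.34% of the cells there without Penk, and 1 was a likely doublet. Depth was higher with 5 or more Penk UMIs, with medians of 4260 against 1690 UMIs in the library labelled WT and 2865 against 2187 in that labelled dKO. The part of mixed droplets in the levels outside cluster 1 was not tested.

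A split by Foxp3 alone, which did not use the clusters, was made on thinned cells. Penk in the library labelled dKO stood at 111 CPM in cells with a Foxp3 UMI and 54.8 CPM in cells without one, a log2 difference of 1.02 (0.79 to 1.24). Tmem158 stood at 63.2 and 24.8 CPM, a difference of 1.35 (1.04 to 1.65). In the library labelled WT the Penk difference was 1.68 (0.77 to 2.48), from 14 UMIs in 7 cells with both, and Tmem158 had 1 UMI in Foxp3+ cells. Within cluster 1, however, the level of Penk was lower in cells with a Foxp3 UMI, by −0.49 (−0.72 to −0.25) in the library labelled dKO and by −1.45 (−2.42 to −0.60) in that labelled WT. The size moved with the thinning, to −1.15 and −3.22 at 2000 UMIs, and to −2.70 with no thinning in the library labelled WT. These are ratios of summed UMIs, to which few cells contribute most. The shares of cells with a Penk UMI overlapped in their intervals, at 3.52% with and 4.26% without a Foxp3 UMI in the library labelled dKO and 5.0% and 6.08% in that labelled WT. Tmem158 there differed by −0.21 (−0.54 to 0.12) in the library labelled dKO, and by 0.13 when cells were thinned to 2000 UMIs, so no direction is given for it.

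Cluster 1 split into 2 subclusters that differed in Il1rl1, which encodes the receptor of the alarmin IL-33. Il1rl1 in the library labelled dKO stood at 3.20 CPM in subcluster 0 and 192 CPM in subcluster 1. Penk was at 86.6 CPM in subcluster 0 and 327 CPM in subcluster 1, a log2 ratio of −1.92 (−2.07 to −1.76). Tmem158 was at 68.8 and 106 CPM, a ratio of −0.62 (−0.83 to −0.41). Areg differed in the same direction (−1.09), while Il10, an inhibitory cytokine, and Tigit, an inhibitory receptor, differed in the other (0.64 and 0.50). The library labelled WT did not show the latter, with Il10 at −0.34 (−1.61 to 0.72) and Tigit at −0.04 (−0.48 to 0.37). Penk in the library labelled WT was at 80.8 CPM (10 UMIs) in subcluster 0 and 224 CPM in subcluster 1, a ratio of −1.47 (−2.55 to −0.56), and Tmem158 had 1 UMI in subcluster 0. Subcluster 0 held 105 of the 538 Treg-like cells labelled WT and 4273 of the 6123 of that labelled dKO. It held 27.8% of the cells with 5 or more Penk UMIs in the library labelled dKO and 71.2% of the cells with none.

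Over all cells, both genes were higher in the library labelled dKO. Penk stood at 15.1 CPM in the library labelled WT and 53.9 CPM in that labelled dKO, a log2 ratio of 1.84 (1.67 to 2.01). Tmem158 stood at 2.13 and 26.7 CPM, a ratio of 3.64 (3.23 to 4.08). Of all genes with enough UMIs, 5.49% were past 2-fold higher in the library labelled dKO and 4.98% lower. These values hold both the shares of the clusters and the levels within them. By arithmetic, with the cluster levels of the library labelled WT and the cluster shares of that labelled dKO, Penk came to 53.0 CPM and Tmem158 to 5.16 CPM. With the levels of the library labelled dKO and the shares of that labelled WT, they came to 23.5 and 13.4 CPM. The value of 53.0 CPM rests on the Penk level of cluster 1 in the library labelled WT, which was 206 CPM with and 107 CPM without its 5 richest cells, and was not computed with the lower level.

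**Figure D3:**
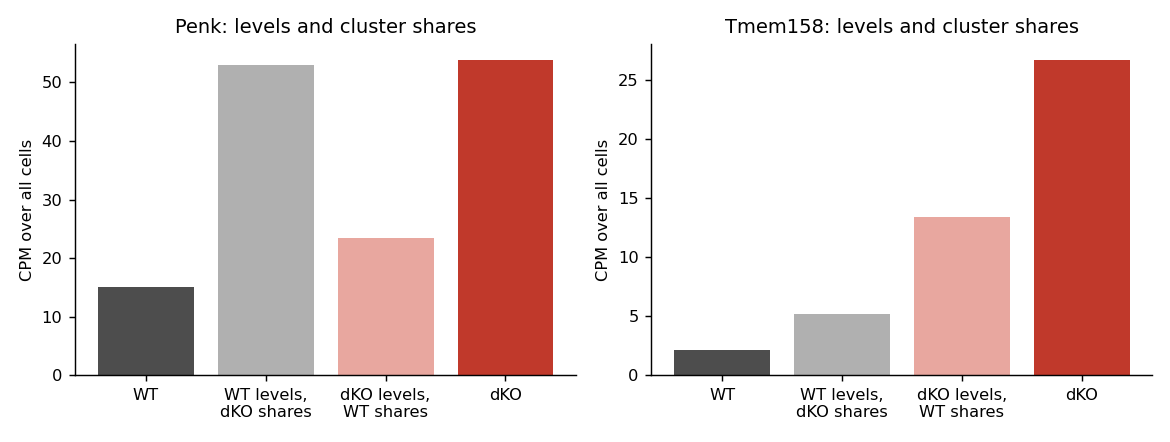
Level of Penk (left) and Tmem158 (right) over all cells (vertical axis, CPM) in the library labelled WT (dark grey) and that labelled dKO (red), and as computed from the cluster levels of one library and the cluster shares of the other (pale bars). With WT levels and dKO shares Penk is at 53.0 CPM beside 53.9, and Tmem158 at 5.16 CPM beside 26.7.

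Within the Treg-like cells the genes parted. Tmem158 was higher in the library labelled dKO by a log2 ratio of 2.19 (1.52 to 2.95), where 4.79% of genes were past 2-fold higher, and the ratio ran from 1.82 to 2.95 under the alternatives tried. It was 3.09 in subcluster 0, from 1 UMI in the library labelled WT, and 2.43 in subcluster 1. In other clusters the Tmem158 ratio was 2.50 (1.79 to 3.28) in cluster 0 and 3.84 (2.41 to 5.76) in cluster 4. It was 2.47 (0.99 to 4.43) in cluster 5 and 4.24 (1.71 to 9.56) in cluster 2. The library labelled WT held only 4 Tmem158 UMIs in cluster 4, 4 in cluster 5 and 1 in cluster 2. Cluster 6 held 0 UMIs in the library labelled WT and 8 in that labelled dKO, with a lower bound of 0.93. The interval held 0 in clusters 3 and 7. The Penk ratio in cluster 1 was −0.22 (−0.43 to 0.00), but 0.10 (−0.79 to 1.17) within subcluster 0 and 0.55 (0.32 to 0.77) within subcluster 1. At resolution 0.2 the clusters high in Foxp3 were pooled, a larger set of 925 cells labelled WT and 6820 labelled dKO. The Penk ratio there was 0.41 (0.20 to 0.62). Since the sign varied with the cells chosen, no direction is given for Penk per Treg-like cell. The ratio in cluster 1 was 0.48 when the 5 cells richest in Penk in each library were left out. These were 5 of 41 Penk+ cells labelled WT and 5 of 255 labelled dKO, so this trim was unequal. With 1 cell per clonotype the ratio was 1.10, but this also left out cells without a receptor pair and kept 130 and 434 cells. Outside cluster 1 the Penk ratio was 0.10 (−0.51 to 0.73) in cluster 4 and 1.45 (1.07 to 1.84) in cluster 0. It was 4.29 (2.41 to 7.35) in cluster 2 from 2 UMIs in the library labelled WT, 1.62 (0.71 to 2.65) in cluster 5 and 1.82 (0.44 to 3.44) in cluster 6. Cluster 3 held 0 Penk UMIs in the library labelled WT and 1 in that labelled dKO, and cluster 7 held 2 and 0. The Foxp3 ratio was 1.64 in cluster 4, 1.77 in cluster 0, 1.99 in cluster 2, 1.59 in cluster 5 and 2.14 in cluster 6. In cluster 1 the Foxp3 ratio was 0.14. Per 100 Foxp3 UMIs, cluster 1 held 48.1 Penk UMIs in the library labelled WT and 37.6 in that labelled dKO, and 4.25 and 17.6 Tmem158 UMIs. Other clusters passed these values for Tmem158. They reached 5.80 in cluster 0, 10.0 in cluster 5, 16.7 in cluster 7 (1 Tmem158 UMI) and 28.6 in cluster 3 (2 UMIs) of the library labelled WT, and 18.5 in cluster 5, 18.2 in cluster 7 (2 UMIs) and 75.0 in cluster 3 (3 UMIs) of that labelled dKO. For Penk they reached 30.9 in cluster 2 of the library labelled dKO and 33.3, from 2 Penk UMIs, in cluster 7 of that labelled WT.

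**Figure D4:**
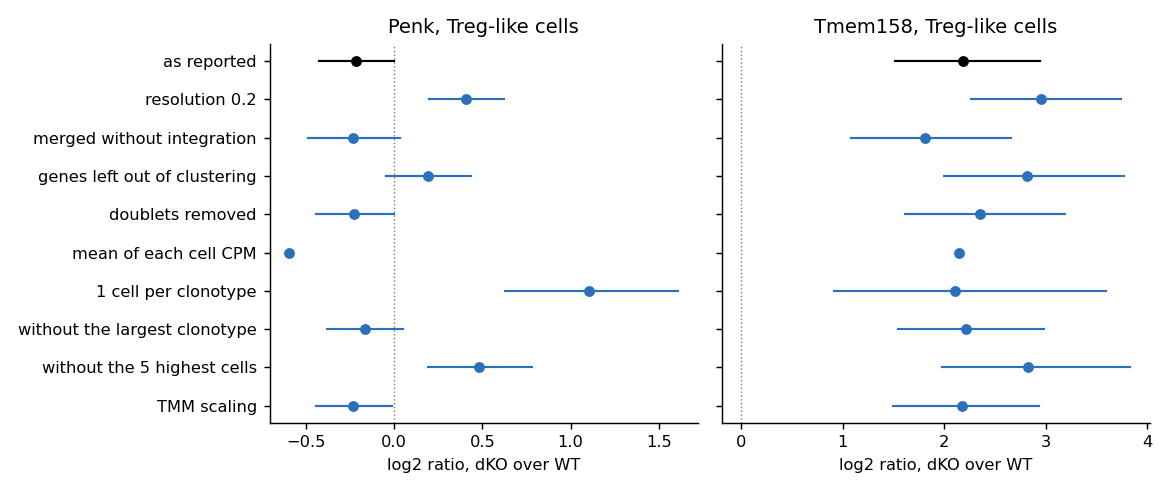
Log2 ratio of the level in Treg-like cells, library labelled dKO over that labelled WT (horizontal axis), for Penk (left) and Tmem158 (right) under each way of choosing or weighting the cells (vertical axis). The reported value is black, lines are exact 95% conditional binomial intervals (not computed for the mean of each cell CPM) and the dotted line marks no difference. Penk lies between −0.60 and 1.10, on both sides of 0, and Tmem158 between 1.82 and 2.95.

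The other genes of the opioid system were taken by role. Of the precursors, Pdyn (dynorphin) and Pnoc (nociceptin) had no UMI in either library, and Pomc, the precursor of beta-endorphin, stood at 6.06 CPM in cluster 1 of the library labelled WT and 4.43 CPM in that labelled dKO. Of the receptors, Oprk1 and Oprl1 had no UMI, and Oprd1, the delta receptor that enkephalins bind, had 1 UMI in each library. Ogfr, a receptor for Met-enkephalin unrelated to these, stood at 61.6 CPM in cluster 1 of the library labelled WT, against 56.7 CPM in other cells, and at 55.8 CPM in that labelled dKO, against 57.7 CPM. Oprm1, the mu receptor, stood at 12.1 CPM in cluster 1 of the library labelled WT, against 14.7 CPM in other cells, and at 24.7 CPM in that labelled dKO, against 7.89 CPM. Its highest cluster was naive-like cluster 3 in the library labelled WT, at 34.0 CPM, and cluster 1 in that labelled dKO.

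Of the enzymes that process proenkephalin, Pcsk1, a prohormone convertase of secretory granules, was skewed to cluster 1. It stood at 9.08 CPM (9 UMIs) against 0.980 CPM in other cells in the library labelled WT and at 5.87 CPM (53 UMIs) against 1.15 CPM in that labelled dKO, log2 ratios of 3.21 (1.91 to 4.39) and 2.35 (1.70 to 3.03). Its highest cluster in the library labelled dKO was cluster 6, at 9.70 CPM (2.00 to 28.4), an interval that overlapped that of cluster 1. Pcsk2, the other granule convertase, had no UMI in cluster 1. Cpe, the carboxypeptidase that trims the cut peptides, had 0 and 14 UMIs there, while the related Cpd stood at 74.7 and 74.9 CPM. Furin, a convertase of the general secretory pathway, stood at 45.4 and 41.2 CPM, below the 69.8 and 48.6 CPM of other cells. In the library labelled dKO, 6 of the 10 processing genes had enough UMIs. Of these, 2 (Pcsk1 and Cpd) were past 2-fold higher in cluster 1 and 2 (Cpe and Ctsl) past 2-fold lower, beside 8.09% and 15.8% of all genes, with a median of −0.22 beside 0.05 over all 11968 genes. In the library labelled WT, 4 were measured and none was past 2-fold higher, with Cpd at 0.82, while 1 (Ctsl) was past 2-fold lower, beside 5.24% and 13.9% of all genes, with a median of −0.19. Of the enzymes that can break enkephalins down, Lnpep, an aminopeptidase, was the most abundant, at 194 CPM in cluster 1 of the library labelled WT and 226 CPM in that labelled dKO. Dpp3 stood at 28.3 and 26.9 CPM there. Mme (neprilysin) had 1 UMI in all cells, Ace had none in cluster 1 and Anpep had 0 and 8 UMIs there. Dpp4 stood at 28.3 CPM in cluster 1 of the library labelled WT and 5.42 CPM in that labelled dKO.

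Genes of the MAPK response stand downstream of Ras. In the library labelled dKO, 3 of the 10 with enough UMIs were past 2-fold higher in cluster 1 than in other cells, Dusp4, a MAPK phosphatase (2.14), Phlda1 (1.58) and Fosl2 (1.43), and 2 were lower, Spred1 (−1.26) and Ier3 (−1.73), with a median of 0.79 beside 0.05 over all genes. Of all genes 8.09% were past 2-fold higher and 15.8% lower there. Dusp4 (2.76) was the 1 gene of 12 past 2-fold higher in the library labelled WT, where the median was 0.21 beside −0.03 over all genes and Spry2 was past 2-fold lower. Of all genes 5.24% were past 2-fold higher and 13.9% lower in that library. Between Tmem158+ and Tmem158-negative cells of cluster 1 in the library labelled dKO, none of the 7 measured members was past 2-fold in either direction, with a median of 0.01 beside −0.01 over all 7390 genes, of which 1.45% were past 2-fold higher and 5.71% lower.

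Penk and Tmem158 were seen together in few cells. Among thinned cells of cluster 1 in the library labelled dKO, 16 held both, where the shares of the genes would give 12 if they were independent. Tmem158 was found in 9.30% of the 172 Penk+ cells and 6.86% of the 4125 others, a difference of 2.44 percentage points (Newcombe interval −1.15 to 7.77). Without thinning the difference was 4.80 points (1.03 to 9.61), and it was −0.37 points at 500 UMIs, −0.98 at 2000 UMIs and −0.60 with 1 cell per clonotype, so no direction is given for it. None of the 22 Penk+ cells of the library labelled WT held a Tmem158 UMI, where independence would give 0.34. Before thinning, 2 of the 30 cells of its cluster 1 with 1 to 4 Penk UMIs held one. None of the 11 with 5 or more did.

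The Penk+ cells of cluster 1 in the library labelled dKO were compared with its Penk-negative cells for 24 genes of Treg biology. Tnfrsf9 was found in 75.0% of Penk+ and 62.3% of Penk-negative cells, a difference of 12.7 points (5.62 to 18.8). The share was higher also for Areg, by 12.2 points (4.94 to 19.8), Nr4a1, by 9.98 points (2.83 to 16.1), Rora, a factor of tissue lymphocytes, by 8.99 points (2.09 to 16.5), Il1rl1, by 6.90 points (2.75 to 12.7), and Gata3, a factor of tissue Tregs, by 5.97 points (0.52 to 12.7). It was lower for Icos, a costimulatory receptor (−14.7 points, −21.3 to −7.23), Il10 (−6.97 points, −10.9 to −1.38) and Ctla4 (−6.75 points, −13.7 to −0.87). For Foxp3 the difference was −4.31 points (−10.8 to 3.06). Of the 24 genes, 6 were thus higher and 3 lower by an interval apart from 0, where 3.64% of all 7390 measured genes were higher and 2.07% lower by the same rule. Among the 3179 genes found in at least 5% of the cells, a limit set after the values were seen, 4.37% were higher and 3.81% lower. Before thinning, subcluster 0 held 27.8% of the cells with 5 or more Penk UMIs, 44.3% with 1 to 4 and 71.2% with none. Areg and Il1rl1 were higher in subcluster 1 and Il10 in subcluster 0 of this library. Whether the differences hold within a subcluster was not tested. The library labelled WT, with 22 Penk+ cells, gave intervals that held 0 for all 9 genes with an interval apart from 0 above. The sign was the same for Tnfrsf9 (7.18 points), Gata3 (16.7), Il1rl1 (2.39), Icos (−4.52), Il10 (−1.55) and Ctla4 (−9.33). It was the other for Areg (−7.91 points, −22.9 to 13.5), Nr4a1 (−18.6 points, −34.9 to 2.89) and Rora (−7.68 points, −25.1 to 13.6), while Tigit was higher by 25.0 points (4.05 to 43.3) and Nr4a3 by 20.9 points (1.03 to 40.7), where 2.51% of all genes were higher in that library and 2.51% lower.

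Tmem158+ cells of cluster 1 in the library labelled dKO gave a similar list of higher genes in part. Tnfrsf9 was higher by 12.7 points (7.27 to 17.5), Ikzf2 by 10.0 points (4.63 to 14.8), Areg by 9.88 points (4.35 to 15.7), Rora by 5.31 points (0.10 to 11.0) and Gata3 by 5.14 points (0.91 to 10.1). Lower were Ctla4 (−7.94 points, −13.3 to −3.24), Gzmb, encoding the protease granzyme B (−6.97 points, −10.0 to −2.97), and Fgl2, a secreted inhibitory protein (−6.25 points, −11.1 to −0.83). The differences for Il1rl1 (0.11 points, −2.13 to 3.41) and Nr4a1 (−0.67 points, −6.44 to 4.76) had intervals that held 0. Of the 24 genes, 5 were higher and 3 lower, beside 4.3% and 2.53% of all measured genes and 5.03% and 3.84% of those found in at least 5% of the cells. Whether the Penk and Tmem158 patterns differ was not tested, and the library labelled WT had only 6 Tmem158+ cells.

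**Figure D5:**
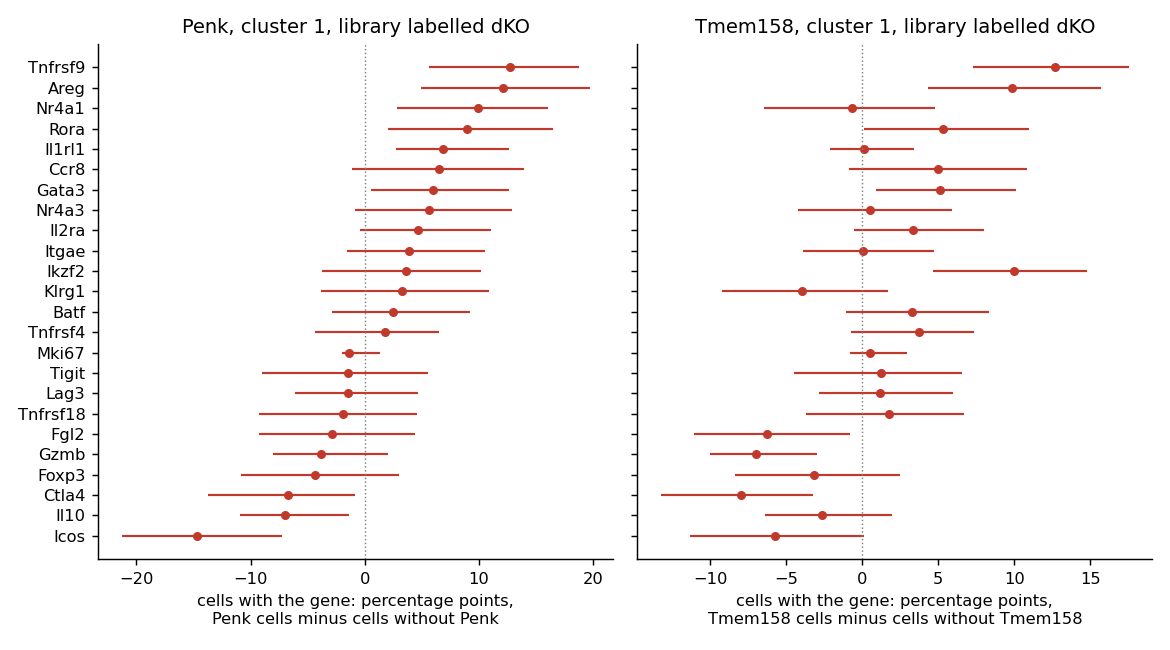
Difference in the share of thinned cluster 1 cells of the library labelled dKO with a UMI of each named gene (horizontal axis, percentage points), between cells with and without Penk (left) and with and without Tmem158 (right), with 95% Newcombe intervals. Tnfrsf9 and Areg lie right of 0 for both genes and Ctla4 left of 0 for both, while the intervals of Il1rl1 and Nr4a1 lie right of 0 for Penk and hold 0 for Tmem158.

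By the level of UMIs, the 11 tissue repair genes had a median log2 ratio of 0.38 between Penk+ and Penk-negative cells in the library labelled dKO, beside −0.07 over all 7390 genes, with Il1rl1 at 0.91, Pparg at 0.82, Rora at 0.75 and Areg at 0.65. None was past 2-fold higher and 1, Hlf, was past 2-fold lower, where 11.1% of all genes were lower. The 12 Treg effector genes had a median of −0.19, with Entpd1, the ectonucleotidase CD39, at −1.11 and past 2-fold lower. Between Tmem158+ and Tmem158-negative cells of the same library, the medians of these lists were 0.26 and −0.25, beside −0.01 over all genes. Among the 7 tissue repair genes measured in the library labelled WT, none was past 2-fold higher between Penk+ and Penk-negative cells and 1, Areg (−1.55), was past 2-fold lower, where 14.2% of all genes were lower. Their median was −0.0034, beside −0.13 over all genes. The 7 Treg effector genes measured there had a median of −0.29. Between the 6 Tmem158+ and the other cells of that library, the tissue repair and effector medians were −0.49 and −0.86, beside −0.20 over all genes. Of 9 genes of resting Tregs, 8 were measured in the library labelled dKO, with a median of 0.24 between Penk+ and Penk-negative cells. S1pr1 (1.23) and Bcl2 (1.11) were past 2-fold higher, beside 2.6% of all genes, and none was past 2-fold lower. In that labelled WT 3 were measured, with a median of 0.50, and Klf2 (−1.17) was past 2-fold lower. Between Tmem158+ and Tmem158-negative cells the resting medians were −0.16 in the library labelled dKO and 0.019 in that labelled WT.

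Over all genes, 2.6% of the 7390 measured in the library labelled dKO (192 genes) and 2.51% of the 1193 in that labelled WT (30 genes) were past 2-fold higher in Penk+ cells. More were past 2-fold lower, 11.1% (821 genes) and 14.2% (170 genes). A gene at the limit of 50 UMIs has few UMIs in so few positive cells, so the rule does not treat the directions alike. No loss of expression is read from this excess, here or for Tmem158. By the interval of the share of cells, 3.64% of genes were higher and 2.07% lower in the library labelled dKO. In that labelled WT, 2.51% were higher and 2.51% lower. Past 2-fold higher in both libraries were 2 genes, or 0.168% of the 1191 measured in both. Lrig1, an inhibitor of growth factor receptors, was higher by 1.44 (0.49 to 2.27) in the library labelled dKO and by 1.28 (−0.0014 to 2.36) in that labelled WT. Pde7a, a phosphodiesterase of cyclic AMP, was higher by 1.01 (0.33 to 1.63) and 1.39 (0.10 to 2.48). The 1 gene past 2-fold lower in both (0.084%) was Ssh2, a cofilin phosphatase, at −1.21 (−2.53 to −0.15) and −1.11 (−4.19 to 0.79). For Tmem158, 1.45% of genes were past 2-fold higher in the library labelled dKO (107 genes) and 5.71% past 2-fold lower, with none higher in both. In that labelled WT, with 6 Tmem158+ cells, the shares were 11.3% (135 genes) and 21.8% (260 genes). With counts of 0 replaced by a small constant, 1 gene, Gzmb, was past 2-fold lower in both (0.0839%). It stood at 140 CPM in Tmem158+ and 300 CPM in Tmem158-negative cells of the library labelled dKO (−1.09, −1.57 to −0.65), but the 6 Tmem158+ cells of that labelled WT held no UMI against 85 in the others, where the upper bound of the ratio was 1.48 and no direction can be given.

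Further genes of the library labelled dKO were chosen after their values were seen, by how far their interval lay from 0. Dusp14, a dual specificity phosphatase, stood at 180 CPM in Penk+ and 51.2 CPM in Penk-negative cells of cluster 1 (1.82, 1.22 to 2.37). Kdm6b, a histone demethylase, was higher by 1.27 (0.80 to 1.70) and Cd83, an activation marker, by 1.14 (0.79 to 1.48). Dgat2, an enzyme of triglyceride synthesis, was higher by 1.52 (0.90 to 2.09) in Penk+ and by 1.18 (0.65 to 1.68) in Tmem158+ cells. Cd83 was higher by 1.0 (0.71 to 1.28) in Tmem158+ cells. Xcl1 had the largest such ratio in Penk+ cells, 2.45, but its 13 UMIs came from 2 cells. Ccr7, the receptor that guides lymphocytes to lymph nodes, was higher in Tmem158+ cells, at 93.6 against 21.5 CPM (2.12, 1.45 to 2.75), from 15 of 299 cells.

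The genes whose levels ran most like each member over the 16 groups of 8 clusters in 2 libraries were named by Pearson's r of log2(CPM + 1) among 10461 genes. For Penk they were Ncmap (0.94), Ccr3 (0.94), Klrg1 (0.93), Mmd (0.93), Hopx (0.92), Ky (0.90), Lrrc32 (0.90), Itgae (0.89), Tent5a (0.89) and Dusp4 (0.88). Lrrc32 encodes GARP, which holds latent TGF-beta on Tregs, and Itgae the integrin CD103. For Tmem158 they were Il10 (0.93), Sdf4 (0.93), Cst7 (0.91), Gm45716 (0.90), Tnfrsf18 (0.89), Nrn1 (0.89), Cd320 (0.87), Clip3 (0.86), Tapbpl (0.85) and Tnfrsf4 (0.84). Tnfrsf18 and Tnfrsf4 encode GITR and OX40, costimulatory receptors of Tregs. Penk and Tmem158 had an r of 0.62 with each other, which ranked Tmem158 at 500 for Penk and Penk at 198 for Tmem158. The 16 points share libraries and the depth of their cells. Likeness over clusters did not extend to single cells for every gene, and Ccr3 stood at 29.1 CPM in Penk+ and 90.7 CPM in Penk-negative cells of cluster 1 in the library labelled dKO (−1.64, −3.27 to −0.41).

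Receptor sequences were used to see whether the genes came from few clones. In cluster 1, 138 cells labelled WT and 1000 labelled dKO had a TRA and TRB pair, from 130 and 434 clonotypes. The 45 Penk+ cells with a pair in the library labelled dKO came from 39 clonotypes and the 100 Tmem158+ cells from 75. The 10 such Penk+ cells of that labelled WT came from 10 clonotypes and the 6 Tmem158+ cells from 6. By the size of the clonotype in the library labelled dKO, Penk in cluster 1 stood at 235 CPM (200 to 275) in cells of clonotypes seen once, 284 CPM (238 to 337) at 2 to 9 cells, 207 CPM (154 to 272) at 10 to 49 cells and 39.9 CPM (23.3 to 63.9) at 50 cells or more. The share of cells with a Penk UMI over these classes was 7.14%, 5.24%, 2.67% and 1.82%. The 207 CPM came from 4 of 150 cells. The last class was 2 clonotypes. The larger, with 223 cells in cluster 1, had 2 Penk+ cells and 20.4 CPM (8.19 to 42.0), and the smaller, with 52 cells, had 3 and 121 CPM (58.2 to 223). Of their cells 82.1% and 98.1% lay in subcluster 0. Tmem158 stood at 73.0 CPM (54.0 to 96.5), 118 CPM (88.6 to 153), 44.7 CPM (22.3 to 79.9) and 49.3 CPM (30.5 to 75.4) over the same classes.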

How the data were processed

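Hepatic CD4+ T cells were sorted and processed with a droplet 5′ kit. The authors deposited raw UMI counts per gene and cell, made with Cell Ranger 7.0.1 on mm10, with no normalization, and receptor contigs per cell, which were joined by barcode within a genotype. Cells with over 200 genes and under 5% mitochondrial UMIs were kept and clustered with Seurat 5.3.0 (2000 variable genes, anchor integration, 9 principal components, resolution 0.1), following the study's methods. These rebuilt clusters may differ from those of the study. Library depth was 23437516 and 37794986 UMIs. Levels (CPM) are summed UMIs over all UMIs of a group, scaled by 1e+06, with exact Poisson, Clopper-Pearson, conditional binomial or Newcombe 95% intervals (scipy 1.17.1, statsmodels 0.14.6). No test was run. Genes with at least 50 UMIs over both groups were measured, and past 2-fold was the limit. Specificity was ranked on log2(CPM + 1) among genes with 30 UMIs in cluster 1. Named genes were the 10 most alike over clusters, those past 2-fold in both libraries, list members, and genes said to be chosen later. Scrublet's automatic threshold marked 0 cells in both libraries and so did not work. The highest scores and cells with 2 or more TRB chains, 1001 and 2489 cells, are the likely doublets, kept except in an alternative. The interval code was tested on simulated data. Sequences came from GENCODE M21. The members and lists were chosen with earlier results of these data known.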

Additional observations from a re-analysis of the deposited data

Results flagged for a closer look

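The log2 ratio of Penk between the library labelled dKO and that labelled WT was −0.22 in Treg-like cluster 1 and above 0 in clusters 0, 2, 4, 5 and 6, although the interval in cluster 4 (0.10, −0.51 to 0.73) held 0 and cluster 2 rested on 2 UMIs in the library labelled WT. This difference in direction between clusters was not tested, since each genotype had 1 library. Within cluster 1 the share of subcluster 0, where Penk was lower in both libraries, differed between the libraries. Subcluster 0 held 105 of 538 cells of cluster 1 in the library labelled WT and 4273 of 6123 in that labelled dKO. The Foxp3 ratio also differed between clusters. It was 0.14 in cluster 1, 1.77 in cluster 0, 1.99 in cluster 2, 1.64 in cluster 4, 1.59 in cluster 5 and 2.14 in cluster 6. Whether either value bears on the direction of Penk was not tested. The ratio in cluster 1 was 0.48 without the 5 cells richest in Penk in each library. That trim was unequal, since it took 5 of 41 Penk+ cells labelled WT and 5 of 255 labelled dKO. It left 105 of 204 Penk UMIs labelled WT and 1343 of 1600 labelled dKO, so no direction is drawn from it.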

How the results depend on the processing

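Of 132 alternative values for 26 results, 86 stayed within counting error (counts of genes within 1.5 times) of the reported value, 41 moved beyond it, and 5 both changed sign and moved beyond it. Values whose interval held 0 changed sign within counting error too. The Tmem158 share with minus without Penk, 2.44 points in the library labelled dKO, was −0.37 at 500 UMIs, −0.98 at 2000 UMIs and −0.60 with 1 cell per clonotype, and that in the library labelled WT, −1.66, was 5.54 at 2000 UMIs and 2.06 with no thinning. Leaving out the 5 cells richest in the gene was chosen after seeing the data. For Penk these were 5 of 41 positive cells of cluster 1 labelled WT and 5 of 255 labelled dKO. Taking 1 cell per clonotype also left out cells without a receptor pair. It kept 130 of 538 cells of cluster 1 labelled WT and 434 of 6123 labelled dKO. Penk in the cells without a pair stood at 247 and 172 CPM, and the 2 choices were not separated. At resolution 0.2 the clusters high in Foxp3 were pooled in place of cluster 1, with 925 cells labelled WT and 6820 labelled dKO. The Penk ratio of the libraries in cluster 1 (−0.22) became 0.41 at resolution 0.2, 0.19 with Penk, Tmem158 and the Treg list left out of clustering, 1.10 with 1 cell per clonotype and 0.48 without the 5 richest cells, and was −0.60 as the mean of each cell's CPM. Over all cells it was 2.52 with 1 cell per clonotype. The Tmem158 ratio was 2.95 in the pooled clusters at resolution 0.2. The Penk level in the library labelled WT was 124 CPM at resolution 0.2, 166 merged without integration, 160 with those genes left out, 139 with no mitochondrial filter, 251 as the mean of each cell, 133 with 1 cell per clonotype and 107 without the 5 richest cells. In that labelled dKO it was 164 at resolution 0.2, 141 merged, 190 with doublets removed, 166 as the mean of each cell, 285 with 1 cell per clonotype and 149 without the 5 richest cells. The Tmem158 level was 9.97 CPM at resolution 0.2 in the library labelled WT, and 65.4 merged and 92.3 as the mean of each cell in that labelled dKO. The shares in the library labelled dKO were 2.84% (Penk) and 3.81% (Tmem158) when thinned to 500 UMIs, 6.27% and 9.49% at 2000 UMIs, and 9.13% for Tmem158 with no thinning. The Foxp3 split of Penk in cluster 1 was −3.22 at 2000 UMIs and −2.70 with no thinning in the library labelled WT, and −1.15 at 2000 UMIs and −0.23 with Il2ra and Ikzf2 added to the gate in that labelled dKO. That of Tmem158 in the library labelled dKO was 0.13 at 2000 UMIs and 0.00043 with the wider gate. At 2000 UMIs, 126 genes were past 2-fold higher and 433 lower in Penk+ cells and 65 and 247 in Tmem158+ cells of the library labelled dKO, and 80 higher in Tmem158+ cells of that labelled WT. With a minimum of 200 UMIs, these counts were 15 and 94 (Penk) and 6 and 26 (Tmem158) in the library labelled dKO, and 1 and 7 (Penk) and 4 and 32 (Tmem158) in that labelled WT, since fewer genes were measured. The cause of the other moves was not tested. No paired analysis was possible because each genotype had 1 library and no test was run. The 18 Tmem158 UMIs and 41 Penk+ cells of cluster 1 in the library labelled WT limit every comparison of Treg-like cells between libraries.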
